A study of Mus musculus with 18 samples.

Results

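LINE-1 (L1) elements are retrotransposons, and the predicted piRNAs described here are sperm small RNA sequences that the authors' deposited table of predicted piRNAs places in repeats of class LINE/L1. Members were taken by that class label up to the last entry number that the lists of all 18 libraries reach, which takes in 75.5% of the 801,902 entries of the table. They number 205,492, or 33.9% of the entries up to that number. Of the members, 203,975 had at least 1 read in some library and 1517 had no listed read.

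The small RNA came from sperm of ICR mice, an outbred strain, in 6 groups of 3 libraries. F0 Con males were controls, and F0 NHS males were exposed to NH3 and H2S from 3 weeks of age, over 5 weeks. F0 males were mated with normal females. F1 NHS males, their sons, received no treatment and were mated with normal females at 8 weeks, and F2 NHS males were the untreated next generation. F1 Con and F2 Con are the controls of those generations. The labels give a mating age of 8 weeks for F1 Con too, and do not otherwise describe the breeding of these controls apart. The labels do not spell out NHS. Whether a group's 3 replicates are different mice is not stated, so p-values rest only on how these libraries vary, which may be technical.

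PIWI-interacting RNAs (piRNAs) are small RNAs of the germ line that guide PIWI proteins to transposon transcripts, and in the male germ line L1 is among their best known targets. Primary piRNAs tend to begin with uridine, written T here. In the ping-pong cycle a piRNA-guided cut in a transcript of the opposite strand makes the 5′ end of a new piRNA, so partners overlap by 10 bases at their 5′ ends and the secondary partner tends to carry A at base 10.

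The members with the most reads do not look like the long, T-first sequences that define piRNAs. The count filter asked for at least 1 CPM (count per 1000000 library reads) in at least 3 libraries. The 10 members with the highest mean level among those that passed were 18 to 22 nucleotides long and are placed in 5 L1 copies. They are shown because they carry much of the L1 signal. Capitals mark the stretch that a member shares with another of the 10 from the same copy.
novel_pir402737: CTGAACGCGCCCGATCTCGTC
novel_pir402743: cCTGAACGCGCCCGATCTCGTC
novel_pir402889: TCTACGGCCATACCACCCT
novel_pir402880: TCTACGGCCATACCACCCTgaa
novel_pir543343: CCGGGGACAGTGCCAGGT
novel_pir543333: gcTCCGGGGACAGTGCCAGGT
novel_pir543342: TCCGGGGACAGTGCCAGGT
novel_pir87629: ttggttggttggttggtt
novel_pir536261: gattcccggccaacgcacca
novel_pir492933: aaagaagaccctgttgagc

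The first 4 lie in the copy at chr15:57432781-57433818 (mm10, repeat on the + strand), in an intron of Slc22a22. All 4 also match annotated 5S ribosomal RNA gene transcripts exactly. The next 3 lie in chr2:90394491-90395211 (+), where GENCODE M21 has no gene. novel_pir87629, a simple repeat of 4 letters, lies in chr10:79215449-79216265 (-), and novel_pir536261 in chr2:7610421-7611010 (-), both outside genes. novel_pir492933 lies in chr19:22852132-22852295 (+), in an intron of Trpm3. The deposited position is that of 1 copy, although an L1 sequence can occur in many: 82,863 members (40.3%) are given on chromosome 10. Positions therefore name a copy that holds the sequence, not the place a read came from.

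A second set shows the piRNA-like side of the class. These are members of 26 to 31 nucleotides, a window chosen after the lengths were seen, whose strand relative to L1 could be read and that occurred in the most libraries. Capitals mark base 1 of the antisense and base 10 of the sense sequences, 4 of each.
novel_pir41063: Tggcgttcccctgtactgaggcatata
novel_pir9715: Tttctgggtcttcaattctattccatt
novel_pir8268: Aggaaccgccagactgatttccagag
novel_pir28632: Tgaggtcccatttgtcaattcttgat
novel_pir456374: tatcaaggaCtctgaggactcaaaaa
novel_pir985: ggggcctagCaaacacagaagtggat
novel_pir804: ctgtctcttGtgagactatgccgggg
novel_pir456371: tatcaaggaCtctgaggactcaaaaaa

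The first 4 are antisense and the last 4 sense to L1. T is the first base of 3 of the 4 antisense sequences, and none of the 4 sense sequences has A at base 10. novel_pir41063 (copy chr10:52805960-52806343, -, in Slc35f1) had 42 reads in 11 libraries, and novel_pir9715 (chr10:37528629-37529710, -) 28 reads in 10. Even these widely shared members thus rest on few reads.

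A set of 6 libraries stood apart from the other 12 and crosses the groups. They are F0 Con replicate 2, F0 NHS replicate 3, F1 NHS replicate 2, F2 Con replicates 1 and 2, and F2 NHS replicate 1. They were set apart after the data were seen, by the largest gap in the level of novel_mir1, a predicted miRNA entry: 2378 to 18,720 TPM in the 6 against 42.9 to 621 in the 12. Library totals ranged from 17,224,458 to 29,430,555 reads, so 3 reads, the most that a count of 0 allows at 95% confidence, are 0.102 to 0.174 reads per 1000000 library reads (RPM). Intervals and floors cover counting error only. Cell type markers, in the 16 libraries with whole miRNA lists, were present for late germ cells (3 of 3 miRNAs listed, summed 4016 to 22,170 TPM). They were also present for epididymal epithelium (5 of 5, 4628 to 28,681), smooth muscle (2 of 2, 5927 to 169,501), red blood cells (4 of 4, 4403 to 77,971) and leukocytes (3 of 3, 415 to 2738). Their part in the L1 results was not tested.

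Long L1 members began with T far more often than short ones, but only in the 12 libraries low in novel_mir1. Among members of 26 to 31 nucleotides, T was the first base of 46.4 to 64.1% of distinct sequences in those 12 libraries (median 56.2%) and of 27.4 to 32.5% in the 6 (median 28.2%). The ranges do not overlap. At 29 and 30 nucleotides the gap was wider, with 57.6 to 75.6% in the 12 and 24.7 to 34.4% in the 6. At 18 to 23 nucleotides the 2 sets overlapped, with 29.7 to 37.8% and 24.9 to 34.4%. The split was not particular to L1. At 26 to 31 nucleotides, predicted piRNAs of the endogenous retrovirus class ERVK had T first in 52.9 to 67.6% in the 12 and 21.6 to 28.6% in the 6. For the class ERV1 the values were 50.3 to 69.0% and 22.2 to 29.5%. The sets were defined from the data, so these values are a description with no test. The prediction tool is not named and may have used the first base, so the level of T may partly reflect how members were selected.

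**Figure D1:**
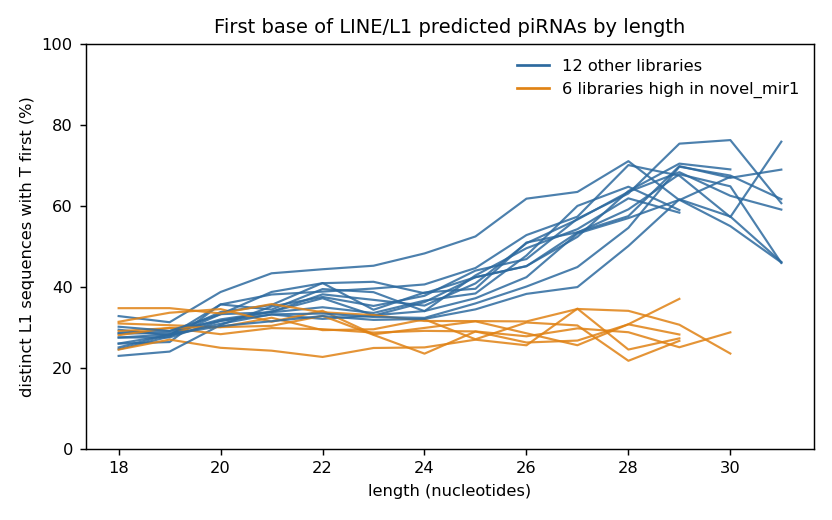
Share of distinct L1 sequences that begin with T (y axis, %) against length (x axis, nucleotides), 1 line per library, at lengths with at least 20 sequences. The 12 libraries low in novel_mir1 (blue) rise with length to 57.6 to 75.6% over 29 and 30 nucleotides, where the 6 high ones (orange) lie at 24.7 to 34.4%, against 24.9 to 34.4% at 18 to 23 nucleotides.

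The group means of this share follow the number of such libraries in each group. T was first in 46.8% ± 14.9 of 26 to 31 nucleotide sequences in F0 Con and 46.0% ± 15.98 in F0 NHS (SD, n = 3 each). F1 Con, with no library of the 6, stood at 61.7% ± 3.23, and F1 NHS at 46.6% ± 16.2. F2 Con stood at 37.4% ± 16.8 and F2 NHS at 44.4% ± 11.1. Without the 6 libraries the means were 55.4, 55.1, 61.7, 55.8, 56.8 (1 library) and 50.4%, in the same order. F1 Con replicates gave 62.9, 58.0 and 64.1%, and the F1 NHS replicates 59.4, 28.4 and 52.2%.

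Most of the class is shorter than a piRNA. Lengths ran from 10 to 42 nucleotides with a median of 21.0, and 29,955 members (14.6%) were 26 to 31 nucleotides long. In single libraries that share was 7.33 to 32.4% in the 12 and 4.15 to 20.7% in the 6, taken over sequences of at least 18 nucleotides. The table holds 15,694 members under 18 nucleotides, of which 14,897 had reads, all in F1 NHS replicate 1, where 33,321 L1 sequences were listed. The rest had no listed read. A single sequence of 13 nucleotides, novel_pir402612 (agaacatgttccg, chr15:18048870-18050875), reached 635.6 RPM there and had no listed read in the other libraries. It was chosen for mention after its values were seen.

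The deposited strand is that of the repeat, not of the small RNA. Of 3748 members whose own copy lies wholly within annotated exons, 1777 matched the copy's strand as deposited and 1971 (52.6%) its reverse complement, and none failed to match. Matching all members of at least 18 nucleotides to 1912 such exonic L1 copies gave a strand for 26,512 of 189,798 (14.0%), of which 13,169 were sense and 13,343 antisense. The strand results below rest on that minority.

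In the 12 libraries, long members of both strands carried both marks, T first and A at base 10, with the smaller excess at base 10. T was base 1 of 55.0% of 1713 antisense sequences of 26 to 31 nucleotides, against a mean of 34.7% over bases 2 to 18. Among 1388 sense sequences T was base 1 in 28.5%, against 18.4% at bases 2 to 18. A was base 10 of 38.4% of the sense sequences, against a mean of 32.4% at the other bases from 2 to 18, though base 1 was as often A. Antisense sequences had A at base 10 in 23.7%, against 18.4% elsewhere. In the 6 libraries neither mark stood out: T was base 1 of 34.2% of 635 antisense sequences, against 35.4% at bases 2 to 18, and A was base 10 of 29.1% of 454 sense sequences, against 31.9% elsewhere.

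Sense and antisense members of at least 24 nucleotides that occurred in the same library overlapped by exactly 10 bases 185 times in the 12 libraries, against 106 pairs at 9 bases and 123 at 11. Longer overlaps reached similar counts, with 168 pairs at 13 bases and 193 at 24, so 10 bases is a local rise and not the highest value. In the 6 libraries there were 30 pairs at 10 bases, 45 at 9 and 31 at 11. Over all lengths, pairs within a library in all 18 libraries numbered 2673 at 10 bases, 2589 at 9 and 2662 at 11. These counts are a description, and pairs share sequences. The 3 pairs seen in the most libraries, each in 3 and each in none of the 6, are printed with the complementary 10 bases in capitals, sense before antisense.
novel_pir1804: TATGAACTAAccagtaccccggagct
novel_pir7571: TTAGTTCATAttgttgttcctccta
novel_pir1806: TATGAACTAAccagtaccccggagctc
novel_pir39618: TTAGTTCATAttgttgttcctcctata
novel_pir8293: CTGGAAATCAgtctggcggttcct
novel_pir8154: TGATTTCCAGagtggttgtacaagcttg

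The sense members of the first 2 pairs lie in the same copy, chr10:25862110-25862702 (-), and are the same sequence but for their 3′ end, and their partners are alike in the same way. Both members of the last pair lie in chr10:115992046-115993296 (-). Read numbers were low, with 12 reads of novel_pir1804 and 17 of novel_pir7571 over all libraries.

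**Figure D2:**
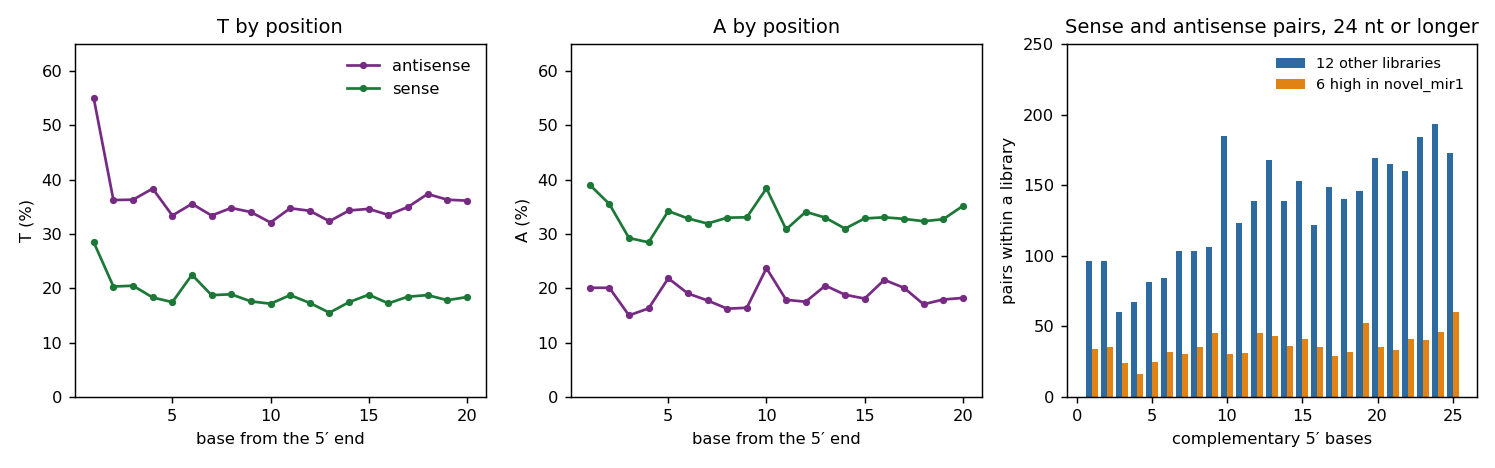
Left and middle, percent of T and of A (y axes) at each base from the 5′ end (x axes) of antisense and sense L1 sequences of 26 to 31 nucleotides in the 12 libraries low in novel_mir1. Right, pairs of sense and antisense sequences of at least 24 nucleotides in the same library (y axis) by number of complementary 5′ bases (x axis), with 185 pairs at 10 bases in the 12 libraries and 30 in the 6.

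Compared within each library with predicted piRNAs of 2 endogenous retrovirus classes, L1 sequences were shorter and less often had A at base 10 than ERVK sequences. Mean length was 21.5 nucleotides ± 1.13 for L1 and 22.0 ± 0.956 for ERVK (SD, n = 18), lower for L1 in all 18 libraries (exact sign-flip test, two-sided, p = 7.63e-06, the smallest it can give, adjusted over 6 tests 2.29e-05). A was base 10 in 24.3% ± 1.87 of L1 and 26.5% ± 3.21 of ERVK sequences, higher for L1 in 4 of 18 libraries (exact adjusted p = 0.00079). Those 4 are all high in novel_mir1. Against ERV1, mean length was lower by 0.55 nucleotides in all 18 (exact adjusted p = 2.29e-05), and base 10 A differed by -0.29 percentage points (exact adjusted p = 0.26). First base T did not pass against either class (exact adjusted p = 0.070 and 0.85), with differences of -2.65 and 0.20 percentage points. Against ERVK, first base T was lower for L1 in all 12 libraries low in novel_mir1 and higher in all 6 high ones. The mean thus joins opposite differences, and that split was not tested. Among sequences of 26 to 31 nucleotides the length difference from ERVK shrank to -0.041 nucleotides and that from ERV1 was 0.029, lost at an exact adjusted p of 0.086. There, base 10 A was lower for L1 by 5.34 points against ERVK, and by 2.58 against ERV1 (exact adjusted p = 9.16e-05 and 0.00094).

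L1 members were mostly rare. Of the listed members, 176,775 (86.7%) occurred in 1 library and 126,199 (61.9%) rested on 1 read in all, while 140 occurred in all 18 libraries and held 30.4% of the 878,445 L1 reads.

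In F1 and F2 more distinct L1 sequences were listed in every NHS library than in any Con library, and in F0 fewer. The F1 and F2 order was not particular to L1, since predicted piRNAs of all classes showed it too. F0 Con libraries listed 15,375, 14,306 and 15,555 and F0 NHS libraries 13,578, 12,883 and 10,330. F1 Con libraries listed 11,749, 9128 and 11,483 and F1 NHS libraries 33,321, 17,331 and 24,873. F2 Con libraries listed 9206, 6817 and 7661 and F2 NHS libraries 10,671, 21,389 and 21,386. The groups did not overlap in any generation. With 3 against 3 libraries the exact permutation test cannot go below p = 0.1, which each generation reached (adjusted over 8 measures 0.20, 0.27 and 0.40). Over the 3 generations the mean difference was 7165 sequences more in NHS, and the exact permutation test gave p = 0.020, which did not pass after adjustment over 8 measures (0.158). Predicted piRNAs of all classes numbered 41,438, 31,962 and 40,020 in F1 Con and 92,941, 58,965 and 75,143 in F1 NHS. They numbered 30,706, 22,199 and 24,892 in F2 Con and 34,306, 64,094 and 66,002 in F2 NHS. In F0 they overlapped, with 49,084, 42,761 and 46,927 in Con and 45,440, 42,380 and 34,587 in NHS.

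The higher L1 numbers sat in sequences with few reads. Counting only sequences with at least 5 reads in the library, F1 Con had 1199 ± 463 and F1 NHS 994 ± 380 (SD, n = 3), and F2 Con had 2179 ± 1055 and F2 NHS 1312 ± 383, with F0 Con at 519 ± 141.7 and F0 NHS at 1084 ± 705. The difference over generations then changed sign, to -169 sequences (exact permutation p = 0.62). Thinned to the 129,539 predicted piRNA reads of the shallowest library, it was 2602 sequences (exact permutation p = 0.21). The 5 libraries whose lists stop before their end are the 3 of F1 NHS and replicates 2 and 3 of F2 NHS, the same that list the most L1 sequences. Their lists are whole up to the number used here, and whether those libraries differ in handling was not tested.

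**Figure D3:**
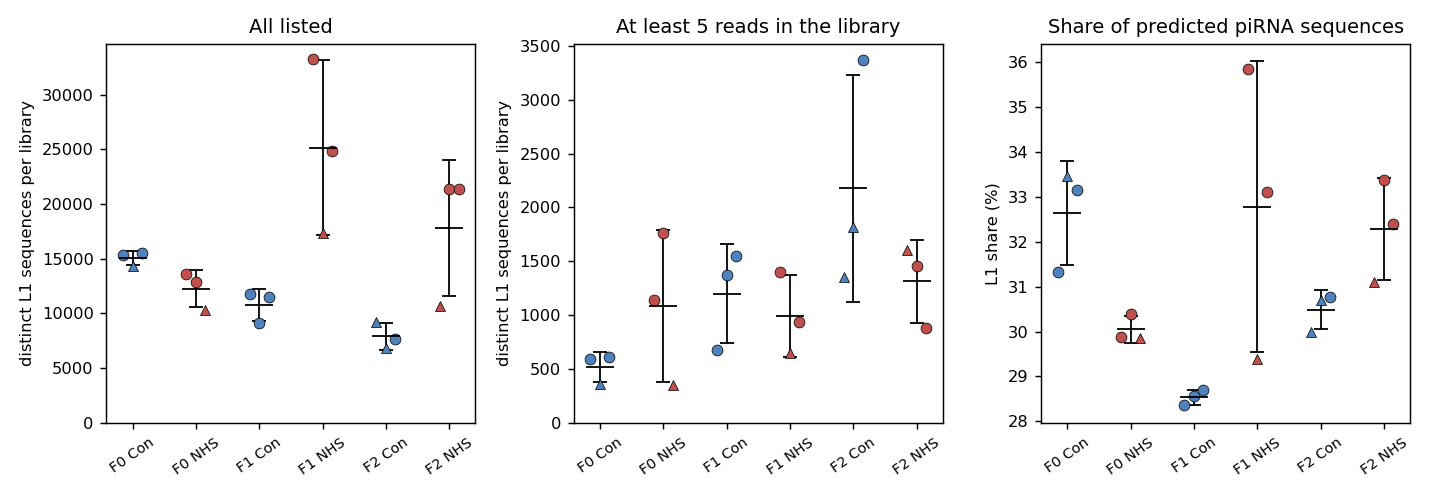
Distinct L1 sequences per library, all listed (left) and with at least 5 reads (middle), and their share of distinct predicted piRNA sequences in % (right, axis not from 0), by group. Points are libraries, triangles the 6 high in novel_mir1, and bars the mean and SD. NHS lies above Con in F1 and F2 on the left, and the order of the means is the opposite in the middle.

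Mean L1 reads differed between NHS and Con in the same direction as the number of sequences in F0 and F1, and in the opposite direction in F2. L1 members took 1760 ± 194 RPM in F0 Con and 1484 ± 219 in F0 NHS, 1683 ± 360 in F1 Con and 3204 ± 2036 in F1 NHS, and 2446 ± 719 in F2 Con and 1916 ± 319 in F2 NHS (SD, n = 3). F1 NHS replicate 1 alone stood at 5495, with the short sequences described above, and the groups overlapped in every generation. Over generations the difference was 239 RPM (exact permutation p = 0.79), and it was -110 among sequences of at least 18 nucleotides. Single generations showed 3 further measures without overlap: in F0 the L1 share of predicted piRNA reads (24.4% ± 5.31 in Con, 16.5% ± 1.73 in NHS) and mean length (20.7 ± 0.22 and 21.1 ± 0.032 nucleotides), and in F1 first base T (41.2% ± 3.28 and 32.3% ± 3.34; SD, n = 3). Among sequences of at least 18 nucleotides the F1 groups overlapped in first base T, with F1 NHS replicate 1 at 38.7% and F1 Con replicate 2 at 37.5%. Of the 8 measures none passed over generations. The smallest p besides that for distinct sequences was 0.19, for first base T (-3.02 percentage points, adjusted 0.55). Base 10 A differed by 0.28 points, mean length by -0.22 nucleotides, the antisense share by -3.29 points, the share of predicted piRNA reads by -1.61 points and the share of sequences by 1.15 points. A p that misses the threshold does not show that the lines were alike.

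The share of L1 among distinct predicted piRNA sequences was ordered by group within each generation as their number was. It was 32.6% ± 1.15 in F0 Con and 30.05% ± 0.303 in F0 NHS, 28.5% ± 0.171 in F1 Con and 32.8% ± 3.24 in F1 NHS, and 30.5% ± 0.441 in F2 Con and 32.3% ± 1.14 in F2 NHS (SD, n = 3), with no overlap within a generation. Tests of the difference between generations, and between Con groups, were added to the plan after the data were seen. NHS minus Con in this share varied between generations, with a largest gap of 6.84 percentage points. The exact permutation test on the summed squared deviations of the 3 differences from their mean gave p = 0.00325 (adjusted over 8 measures 0.026). No other of the 8 measures passed. Labels were permuted within each generation, so the null is no NHS effect in any generation. A small p thus does not isolate a difference between generations. The mean effect of F1 and F2 minus that of F0 was 5.62 points. The call was lost without the 6 libraries, where that difference was 6.12 points over fewer libraries (adjusted p = 0.074), at 26 to 31 nucleotides (3.42 points, 0.106), and in 7 of 18 fits that left out 1 library. Those libraries were F0 Con replicate 2, the 3 F0 NHS and the 3 F1 Con libraries, with adjusted p from 0.058 to 0.348. With at least 5 reads the difference between F1 and F2 on one side and F0 on the other changed sign (-1.64 points). Con groups differed between generations in 3 of 8 measures: the share of sequences and their number (exact permutation, adjusted p = 0.029 each) and base 10 A (0.048). Distinct sequences numbered 15,079 ± 675 in F0 Con, 10,787 ± 1443 in F1 Con and 7895 ± 1212 in F2 Con (SD, n = 3). All 3 calls were lost without the 6 libraries (adjusted p = 0.089 each), where F2 Con has 1 library. F2 Con minus F0 Con was then -7804 sequences (-7184 with all libraries), -5.20 points of base 10 A (-3.75) and -1.46 points of the share (-2.15). The call on base 10 A was also lost on leaving out any F0 Con or F1 Con library (adjusted p = 0.086 to 0.171).

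Members placed in a few copies held much of the L1 signal, and within a copy they are pieces of the same letters with shifted ends. Values of a copy are those of the members placed in it, and whether the reads arose there was not tested. The copy at chr2:90394491-90395211 held 288 members and 15.1% of the mean L1 RPM. The copy at chr15:57432781-57433818 held 193 members, of which 164 match 5S ribosomal RNA, and 9.10%. The copy at chr19:22852132-22852295 held 101 members and 6.50%. The 3 together made up 12.1 to 50.0% of L1 reads in a library. Among L1 members of at least 18 nucleotides, 0.349% of sequences but 10.4% of reads matched annotated structural RNA transcripts, nearly all of them 5S (80,322 of 85,770 reads). The same share of reads was 18.99% for ERVK, 0.0622% for ERV1 and 9.81% for all predicted piRNAs up to that number. These shares cover the annotated transcripts only. Full sequences of the large ribosomal RNAs and of tRNAs were not compared. Whether members of the chromosome 2 and 19 copies match those was therefore not tested.

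The chromosome 2 copy gave 258, 382 and 163 RPM in F0 Con and 165, 187 and 125 in F0 NHS. It gave 267, 637 and 244 in F1 Con, 366, 132 and 555 in F1 NHS, 235, 323 and 770 in F2 Con and 289, 450 and 97.4 in F2 NHS. The groups overlapped in each generation. Its most abundant members of 26 to 31 nucleotides, novel_pir543265 (27 nucleotides, first base C) and novel_pir543269 (26, first base T), had 211 and 1099 reads in the 6 libraries and 3379 and 1534 in the 12, with reads in all 18.

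The chromosome 15 copy, with the 5S matches, was highest in F2 Con, at 205, 682 and 466 RPM, against 293, 66.6 and 56.9 in F2 NHS. It was at 98.3 ± 26.1 in F0 Con, 122 ± 143.2 in F0 NHS, 116 ± 33.6 in F1 Con and 211 ± 104 in F1 NHS (SD, n = 3). A stretch of this copy differed between the 6 libraries and the 12, and another overlapped. novel_pir402889, with the letters tctacggccataccaccct, stood at 11.8 to 116 RPM in the 6 and 0.039 to 2.25 in the 12, and novel_pir402880 at 16.7 to 65.03 and 0.11 to 4.73. novel_pir402737, from further along the same copy, overlapped between the sets, at 2.27 to 173 in the 6 and 6.80 to 233 in the 12. Of the 937 predicted piRNAs tested, the 3 whose levels over 18 libraries were most like those of novel_pir402737 were novel_pir402746, novel_pir402759 and novel_pir402747 (Spearman rho 0.88, 0.86 and 0.83), all from the same copy and all matching 5S.

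The groups did not overlap in F1 for the chromosome 19 copy, which gave 63.4, 46.8 and 49.4 RPM in F1 Con and 216, 215 and 224 in F1 NHS. F0 ran the other way in its means, with 195, 210 and 292 in Con against 65.2, 139 and 251 in NHS, overlapping. F2 Con stood at 177, 112 and 63.0 and F2 NHS at 32.5, 31.5 and 53.1, without overlap and lower in NHS. The 2 highest F2 Con values are libraries of the 6, in which this copy had a median of 194 RPM (32.5 to 251) against 64.3 in the 12 (31.5 to 292). The part of that set in the F2 difference was not tested. These copy totals were picked for their size and have no test. The copy at chr10:79215449-79216265, with the simple repeat, was lower in the 6 libraries (1.98 to 25.1 RPM) than in the 12 (28.2 to 202).

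**Figure D4:**
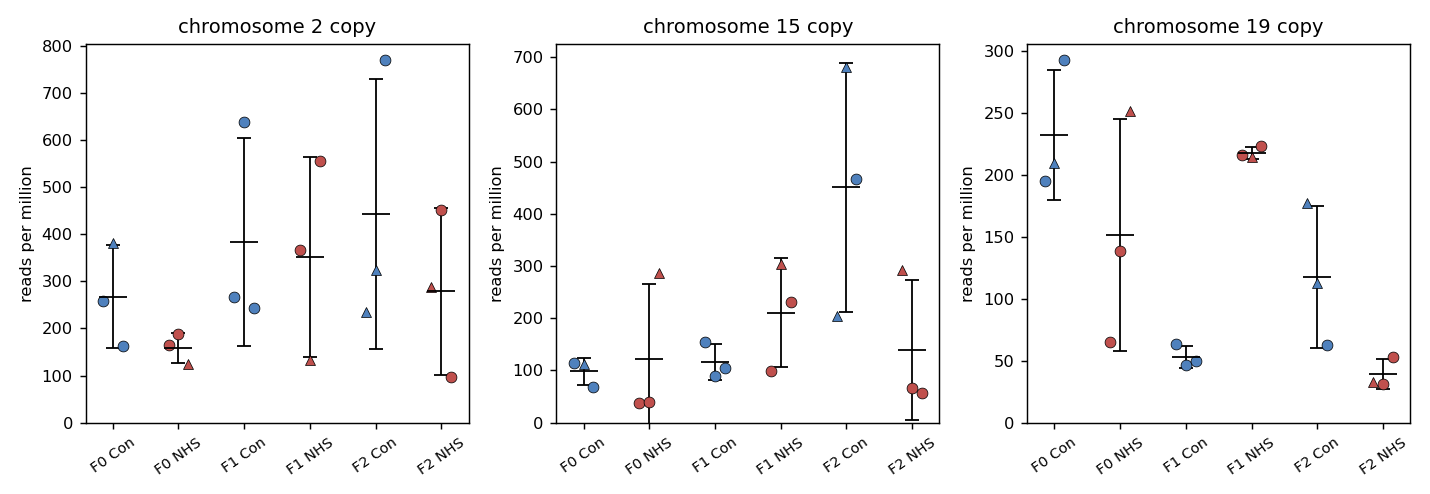
RPM (y axes, from 0) of the 3 L1 copies with most reads, by group. Points are libraries, triangles the 6 high in novel_mir1, and bars the mean and SD of 3 libraries. The chromosome 19 copy lies at 215 to 224 in F1 NHS and at 46.8 to 63.4 in F1 Con, and most other pairs of groups overlap.

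The number of L1 members called depended on the tool: edgeR, the main test, called 0 in each of 6 comparisons, and DESeq2 called 1 to 27. Of the 205,492 members, 275 (0.134%) passed the count filter, among 937 predicted piRNAs tested. Of these 275, 162 lie in the 3 copies above, 37 match 5S, 35 are 26 to 31 nucleotides long and 70 (25.5%) begin with T. By edgeR's quasi-likelihood test with Benjamini-Hochberg adjustment over the 937, 0 of 275 were called between NHS and Con in F0, F1 and F2, against 0.0, 0.0 and 0.107% of all tested. At an unadjusted p under 0.05 there were 17, 12 and 26 of 275, among 43, 63 and 96 of 937. The median standard error of an L1 log2 fold change was 1.45, 1.45 and 1.48, so differences of several fold lay within the spread between libraries.

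By the same edgeR test, 0 L1 members were called for the NHS effect averaged over generations, for its change between generations and between Con groups, against 0.0% of all tested. Unadjusted p was under 0.05 for 19, 23 and 44 of 275 L1 members, among 62, 71 and 131 of 937. The median log2 fold change of the 275 was -0.072 in F0, 0.21 in F1 and 0.30 in F2, beside 0.15, -0.017 and 0.41 over all 937. With library totals in place of TMM these medians became 0.15, 0.49 and -0.29 for L1 and 0.42, 0.20 and -0.23 for all, so the sign of the L1 median depends on the scaling in F0 and F2.

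DESeq2 called 7 L1 members in F0, all lower in NHS, 1 in F1, higher, and 12 in F2, 10 of them higher, where 1.39, 0.854 and 4.59% of all tested were called. It called 4, 3 and 27 for the mean effect, its difference between generations and the Con groups (2.45, 1.07 and 6.83% of all). Without the 6 libraries, edgeR called 10 in F2 (7 higher), 10 for the mean effect, 10 for its difference and 20 between Con groups, of 229 L1 members tested, where 5.01, 4.18, 6.55 and 9.19% of all 718 were called. F2 Con then has 1 library, assumed to vary like the others. Levels did not overlap between the groups for 15 L1 members higher and 24 lower in NHS in F0 (4.7 and 5.02% of all tested), 26 and 6 in F1 (6.51 and 4.8%), and 4 and 22 in F2 (2.24 and 6.4%).

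Among the members named for the smallest unadjusted p, those of F1 are placed in the chromosome 19 copy. novel_pir492928, novel_pir492917 and novel_pir492925 had log2 fold changes of 5.26 ± 2.03, 3.81 ± 1.44 and 5.83 ± 2.29 (SE), each with edgeR's adjusted p of 0.67, and no overlap between the F1 groups. The first stood at 0.29 ± 0.17 RPM in F1 Con and 10.1 ± 8.28 in F1 NHS (SD, n = 3). It stood at 3.40 to 25.2 RPM in the 6 libraries high in novel_mir1 and 0.072 to 11.52 in the 12, and F1 NHS replicate 2, its highest in F1 at 17.5, is among the 6. The part of that set in the F1 difference was not tested. Their letters differ only at the ends.
novel_pir492928: ggaaagaagaccctgttgagctt
novel_pir492917: gggaaagaagaccctgttgag
novel_pir492925: ggaaagaagaccctgttgagc
novel_pir492911: ggggaaagaagaccctgttgagctt

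novel_pir492911, the longest of the 4, had no read in the 3 F2 Con libraries and 0.0, 3.70 and 12.3 RPM in F2 NHS, so the F2 groups overlap at 0. The F2 NHS mean is at least 39.4-fold higher than a floor of 3 reads in each Con library. edgeR's adjusted p was 0.18, and 0.066 between Con groups, where F0 Con stood at 31.01, 1.61 and 44.1. DESeq2 called it in both (adjusted p = 8.89e-06 and 8.7e-05). It was called by edgeR in F2 without F2 NHS replicate 1 (adjusted p = 0.019), where 0.333% of all tested were called. novel_pir492942 of the same copy and novel_pir401532 (chr15:65494679-65494802) also had no read in F2 Con, and their F2 NHS means were at least 2.47-fold and 6.01-fold higher than that floor (edgeR's adjusted p = 0.20 each; DESeq2's 0.0084 and 0.0038). Between Con groups edgeR called 2 L1 members without F1 NHS replicate 2, 3 without F2 NHS replicate 1 and 1 without F2 NHS replicate 3, where 0.444, 0.555 and 0.11% of all tested were called, and novel_pir492911 was called for the difference between generations without F2 NHS replicate 1 (edgeR's adjusted p = 0.030; 0.222% of all tested).

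In F0 the 3 members with the smallest p were lower in NHS and did not overlap. Of these, novel_pir490166 and novel_pir327363 reached 1 CPM only in the 3 F0 Con libraries. The count filter thus fixed in advance that they lie higher in F0 Con without overlap, and their F0 difference is no support for an effect. novel_pir490196 and novel_pir490166 lie in chr19:22851630-22851970 (+), in an intron of Trpm3, and had log2 fold changes of -3.89 ± 1.31 and -3.70 ± 1.34 (SE, edgeR's adjusted p = 0.99 each), while DESeq2 called both (adjusted p = 0.0077 and 0.033). novel_pir327363, in an intron of Mast4 (chr13:103313861-103314134, -), was at 2.35 ± 1.10 RPM in F0 Con, 0.081 ± 0.085 in F0 NHS and 0 in F1. The most abundant member, novel_pir402737, had a mean NHS effect of -1.88 ± 0.63 (log2, SE, edgeR's adjusted p = 0.46; 0.023 by DESeq2), with 59.0, 6.90 and 16.9 RPM in F0 Con against 9.73, 6.80 and 2.27 in F0 NHS. In F2 it stood at 57.5, 173 and 233 in Con and 26.1, 13.0 and 25.7 in NHS, without overlap, and in F1 the groups overlapped. novel_pir492920, of the chromosome 19 copy, was named for the tests between generations, at 32.96 ± 23.1 in F0 Con, 3.22 ± 3.52 in F1 Con and 0.29 ± 0.082 in F2 Con (SD, n = 3, edgeR's adjusted p = 0.066).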

How the data were processed

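Small RNA of mouse sperm was sequenced in 18 libraries, 3 in each of 6 groups. The authors deposited, per the file headers, whole-number read counts and TPM values per listed small RNA, and a second table with the repeat class, position and sequence of each predicted piRNA. The deposited TPM values equal the count divided by the library total, per 1000000 reads, with no length term. The submitters' processing notes name mm10, and no aligner, counting tool or prediction tool is named (not given in the sources used here). The table of counts ends before the lists of 5 libraries do, so members were used up to the number that every list reaches, and the totals of those 5 were worked out from their counts and TPM values.

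Counts of all predicted piRNAs up to that number were fitted with edgeR 4.0.16 (R 4.3.3), with TMM scaling, library totals as library sizes, 6 group means in 1 model, at least 1 CPM in at least 3 libraries, and Benjamini-Hochberg adjustment over all 937 tested. DESeq2 1.42.0 and limma 3.58.1 were run beside it. The 8 measures per library were L1 RPM, shares of predicted piRNA reads and sequences, distinct sequences, first base T, base 10 A, mean length and antisense share. They were tested by two-sided exact permutation with numpy 2.4.6, within each generation (20 relabelings) and over generations (8000). Benjamini-Hochberg adjustment was over the 8 measures. The same 8 were also tested for a difference between generations and between Con groups, which was added after the data were seen, so 6 contrasts were computed in all. For the difference between generations, NHS and Con labels were permuted within each generation, under a null of no NHS effect in any generation. Strand was read by exact match to GENCODE M21 (mm10) transcripts over L1 copies inside exons. Structural RNA matches are exact matches to transcripts of that annotation. Full sequences of the large ribosomal RNAs and of tRNAs were not at hand.

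The L1 members, the lists and the tests were chosen with earlier results of these data known. Named members are every member called, the 10 with the highest mean level and the 3 with the smallest unadjusted p in each contrast, among those past the filter; the table names the L1 class without subfamilies. The windows of 18 and of 26 to 31 nucleotides and the set of 6 libraries were chosen after seeing the data. Scripts were tested on simulated data. No column of another series was found (0 unmapped).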

Additional observations from a re-analysis of the deposited data

Results flagged for a closer look

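NHS minus Con in the L1 share of distinct predicted piRNA sequences varied between generations (exact permutation test p = 0.00325, adjusted over 8 measures 0.026). The null of that test is no NHS effect in any generation, so it does not isolate a difference between generations. NHS minus Con was -2.59 percentage points in F0, 4.25 in F1 and 1.80 in F2. The test was added after the data were seen, and the settings that end the call are given with the result. The 5 libraries with lists that stop early are all among the F1 and F2 NHS libraries, and their part in this difference was not tested.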

How the results depend on the processing

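Counts of L1 members called by edgeR, 0 in each comparison, moved as follows; the cause was not tested. With DESeq2, L1 calls were 7 for F0, 1 for F1, 12 for F2, 4 for the mean effect, 3 for its difference and 27 for Con groups (1.39, 0.854, 4.59, 2.45, 1.07 and 6.83% of all tested). With limma-trend on log2(CPM + 0.5), L1 calls were 3 for F0 and 3 for Con groups (0.854 and 1.17%). With a term for the 6 libraries high in novel_mir1, L1 calls were 1 for F0, 2 for F2 and 15 for Con groups (0.107, 0.534 and 4.06%). With no filter, L1 calls were 2 for F1, 1 for F2, 1 for its difference and 1 for Con groups (0.00283, 0.000832, 0.00249 and 0.00283%). With a filter of 5 CPM in 3 libraries, L1 calls were 1 for F2 and 2 for Con groups (0.913 and 1.37%). Without the 6 libraries high in novel_mir1, L1 calls were 10 for F2, 10 for the mean effect, 10 for its difference and 20 for Con groups (5.01, 4.18, 6.55 and 9.19%). With all predicted piRNAs in 16 libraries, L1 calls were 5 for Con groups (0.808%).

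Of the 8 measures, in their own units, these changed sign or lost a call; the cause was not tested. Read-weighted values and the 5-read limit were planned, and settings by length or the 6 libraries were added after seeing the data. With only sequences of at least 5 reads, the sign changed for RPM over generations (-95.1), share of sequences over generations (-0.592), distinct sequences over generations (-169), base 10 A over generations (-0.987), mean length over generations (0.213) and share of sequences as F1 and F2 against F0 (-1.64). There it also held of distinct sequences as F1 and F2 against F0 (-1101), share of sequences for Con, F2 minus F0 (2.35), distinct sequences for Con, F2 minus F0 (1660), base 10 A for Con, F2 minus F0 (2.75), share of sequences in F0 (0.499) and distinct sequences in F0 (565). There it also held of distinct sequences in F1 (-205), antisense share in F1 (3.1), share of reads in F2 (-3.26), share of sequences in F2 (-2.33), distinct sequences in F2 (-867) and base 10 A in F2 (-2.28). Weighted by reads, the sign changed for first base T over generations (2.88), mean length over generations (0.0204), first base T in F0 (6.69), base 10 A in F1 (5.96) and antisense share in F1 (4.1). Weighted by reads, the call was lost for base 10 A for Con, F2 minus F0 (-2.43). With sequences of at least 18 nucleotides, the sign changed for RPM over generations (-110), mean length over generations (0.104), share of reads in F1 (-0.302) and base 10 A in F1 (0.586). With sequences of 26 to 31 nucleotides, the sign changed for mean length over generations (0.0249), share of sequences for Con, F2 minus F0 (2.1), distinct sequences for Con, F2 minus F0 (335), RPM in F0 (12.8), distinct sequences in F0 (138) and mean length in F0 (-0.048). There it also held of RPM in F2 (119) and share of reads in F2 (-3.3). With sequences of 26 to 31 nucleotides, the call was lost for share of sequences as F1 and F2 against F0 (3.42) and base 10 A for Con, F2 minus F0 (-3.63). Without the 6 libraries high in novel_mir1, the sign changed for first base T in F0 (2.22), antisense share in F0 (1.07), base 10 A in F1 (0.477), share of reads in F2 (-7.63), first base T in F2 (-7.98) and mean length in F2 (-1.03). Without the 6 libraries high in novel_mir1, the call was lost for share of sequences as F1 and F2 against F0 (6.12), share of sequences for Con, F2 minus F0 (-1.46), distinct sequences for Con, F2 minus F0 (-7804) and base 10 A for Con, F2 minus F0 (-5.2). With sequences of 26 to 31 nucleotides, without the 6 libraries high in novel_mir1, the sign changed for RPM over generations (-14.7), share of sequences over generations (-0.104), share of sequences for Con, F2 minus F0 (3.76), distinct sequences for Con, F2 minus F0 (1120), mean length in F0 (-0.135) and base 10 A in F1 (0.959). There it also held of share of reads in F2 (-4.02), share of sequences in F2 (-0.321), first base T in F2 (-6.45) and mean length in F2 (-0.0939). With sequences of 26 to 31 nucleotides, without the 6 libraries high in novel_mir1, the call was lost for share of sequences as F1 and F2 against F0 (3.39) and base 10 A for Con, F2 minus F0 (-4.52). With sequences of at least 18 nucleotides, without the 6 libraries high in novel_mir1, the sign changed for RPM over generations (-153), first base T in F0 (2.22), antisense share in F0 (1.07), base 10 A in F1 (1.97), share of reads in F2 (-7.63) and first base T in F2 (-7.98). There it also held of mean length in F2 (-1.03). With sequences of at least 18 nucleotides, without the 6 libraries high in novel_mir1, the call was lost for share of sequences as F1 and F2 against F0 (4.92), share of sequences for Con, F2 minus F0 (-1.46), distinct sequences for Con, F2 minus F0 (-7804) and base 10 A for Con, F2 minus F0 (-5.2).

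Leaving out 1 library gave 0 to 1 for F2, 0 to 1 for its difference, 0 to 3 for Con groups, -143 to 506 for RPM over generations, -3.17 to 0.338 for share of reads over generations and -0.0792 to 0.908 for base 10 A over generations. It gave -0.427 to 0.156 for mean length over generations, 4.85 to 6.47 for share of sequences as F1 and F2 against F0, -4.59 to -3.26 for base 10 A for Con, F2 minus F0, -1.98 to 2.95 for first base T in F0, -1.95 to 8.04 for share of reads in F1 and -0.88 to 0.477 for base 10 A in F1. It gave -4.31 to 2.49 for antisense share in F1, -4.25 to 6.28 for share of reads in F2, -2.69 to 4.5 for first base T in F2 and -0.203 to 1.06 for mean length in F2. Of 248 further values on the added tests of 11 results, 25 changed sign and 3 passed the threshold (RPM between generations without F1 NHS replicate 2, and first base T and mean length between Con groups without F2 Con replicate 3). Replicate numbers did not pair the libraries: same-numbered deviations correlated at -0.70 to 0.64. With the replicate block, 0 L1 members were called in all 6 comparisons, and the p for distinct sequences over generations (7165 more in NHS, exact sign-flip test) was 0.059, adjusted 0.469.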
